A study of Homo sapiens with 6 samples.

Results

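Transcripts of the hypoxia pathway were followed in MDA-MB231, a human cell line from a triple-negative breast cancer, after depletion, by siRNA, of the histone demethylase LSD1, which is encoded by KDM1A. The 36 genes described here were chosen by symbol, with earlier results of these data known. They are 8 genes of the hypoxia-inducible factor (HIF) pathway and 28 genes known as HIF targets outside glycolysis. All 36 were among the 23368 genes of the deposited table. RNA-seq was made from 6 libraries, 2 for each group: cells transfected with siL2, with siL1, or with a control siRNA (siControl). siL2 and siL1 are each directed against LSD1 and differ from one another. All groups were grown in medium with 10% serum and transfected with the same reagent, INTERFERin. The labels name no hypoxic treatment. Whether the 2 libraries of a group are separate cultures is not stated, and p-values rest on the spread between libraries, which may be technical.

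HIF is a heterodimer of an oxygen-sensitive alpha subunit and the stable beta subunit ARNT. When oxygen is present, prolyl hydroxylases of the EGLN family mark the alpha subunit for VHL, which sends it to the proteasome, and the asparaginyl hydroxylase HIF1AN blocks its contact with the coactivators p300 and CBP. At low oxygen the alpha subunit escapes both, and the dimer binds hypoxia response elements and raises genes of vessel growth, pH control, mitophagy and metabolism. Because this control acts on the protein, the mRNA levels below do not measure HIF activity, and no protein was measured.

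The libraries held 22047738 to 26765079 counts. Levels are given as CPM, the counts of a gene scaled to a common library total, which are not corrected for gene length and so are compared between libraries and not between genes. Differences are log2 fold changes with their standard error (SE) from edgeR's quasi-likelihood test, with Benjamini-Hochberg adjusted p over 13322 tested genes and a threshold of 0.05. A gene with 0 counts in a library could have up to 3, which is 0.112 to 0.136 CPM, as far as counting error goes. The line markers VIM, CD44, AXL and MSN stood at 541 to 3707 CPM. Of 6 luminal and epithelial markers, ESR1, PGR, CDH1 and KRT19 were below 1 CPM in every library, ERBB2 ran from 46.6 to 59.8 CPM and GATA3 from 2.54 to 5.40 CPM. Of 10 markers of blood, endothelium and fibroblasts, 7 were below 1 CPM in every library, with DCN and LUM at 0 in each. CD68, which many cultured lines also make, ran from 206 to 272 CPM. The other 9 summed to 9.58 and 11.1 CPM in siL2 cells, 14.3 to 15.1 CPM in siL1 cells and 7.37 to 7.53 CPM in siControl cells, most of it COL1A1. Their part in the results below was not tested.

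The knockdown was deeper with siL2 than with siL1. KDM1A stood at 17.4 and 18.1 CPM in the siL2 libraries, 27.7 and 28.1 CPM in the siL1 libraries, and 158 and 165 CPM in the siControl libraries. All 3 groups were separate. The log2 fold change of KDM1A was -3.19 for siL2 (SE 0.0567, adjusted p = 2.16e-12, edgeR) and -2.53 for siL1 (SE 0.0538, adjusted p = 1.09e-11), and siL2 minus siL1 was -0.66 (adjusted p = 4.36e-06).

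Of HIF1A, ARNT and EPAS1, the HIF subunits among the 8 pathway genes, EPAS1 passed the test with siL1, and none passed with siL2. HIF1A, the alpha subunit found in nearly all tissues, had 338 and 349 CPM in siL2 cells, 331 and 370 CPM in siL1 cells, and 333 and 348 CPM in siControl cells. The groups overlapped, and the log2 fold changes were 0.01 with siL2 (SE 0.0507, adjusted p = 0.924) and 0.05 with siL1 (SE 0.0507, adjusted p = 0.480). ARNT, the shared partner, had 51.1 and 47.6 CPM in siL2 cells, 47.6 and 44.5 CPM in siL1 cells, and 48.6 and 47.5 CPM in siControl cells, again with overlap and with adjusted p of 0.658 (siL2) and 0.461 (siL1). EPAS1, which encodes HIF-2 alpha, had 24.4 and 22.1 CPM in siL2 cells, 30.2 and 31.97 CPM in siL1 cells, and 20.3 and 21.0 CPM in siControl cells. Both siL1 libraries were above all the others. EPAS1 rose 1.51-fold with siL1 (log2 fold change 0.59, SE 0.0775, adjusted p = 3.89e-05), whereas its log2 fold change with siL2 was 0.17 (adjusted p = 0.102). The difference between the siRNAs passed the test itself (siL2 minus siL1 -0.43, adjusted p = 0.000497).

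**Figure D1:**
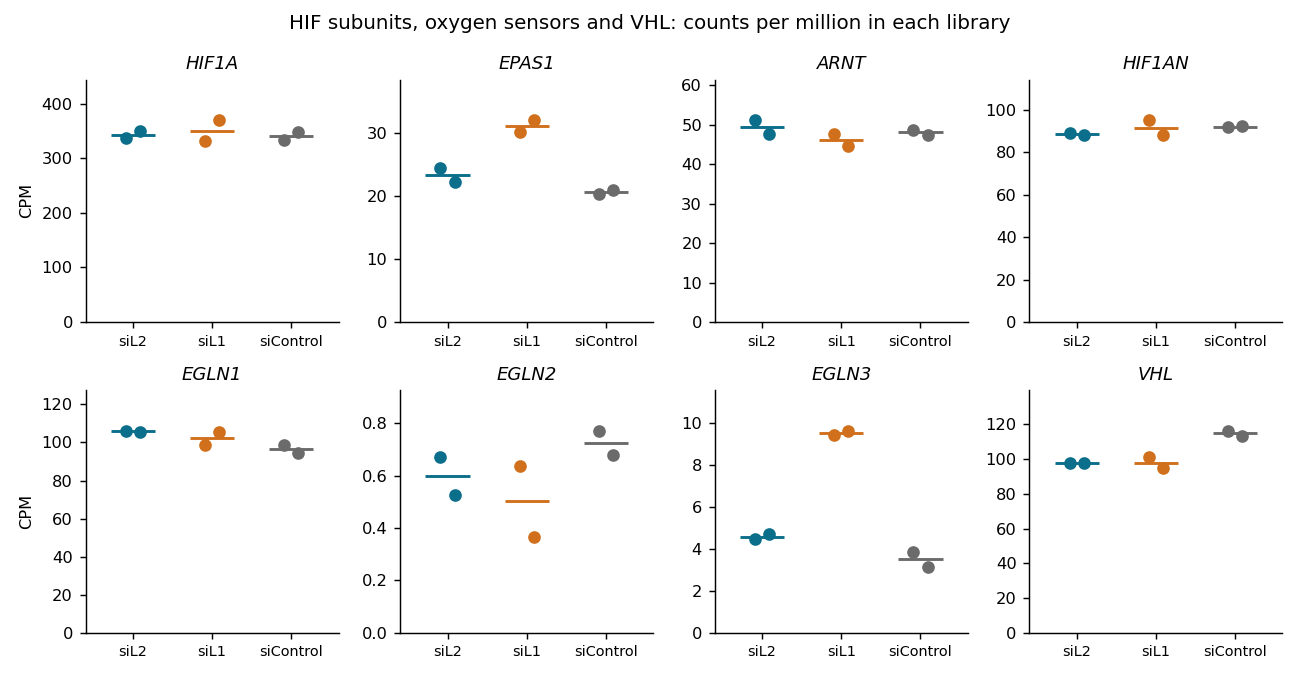
CPM (vertical axis, from 0) of the 8 pathway genes in each library of siL2, siL1 and siControl. Points are libraries and bars are means of 2. EGLN3 and EPAS1 stood higher in both siL1 libraries, VHL was lower with either LSD1 siRNA than with siControl, and HIF1A and ARNT overlapped between groups.

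Among the oxygen sensors, EGLN3 moved most. EGLN3, a prolyl hydroxylase that is itself a HIF target and so acts in feedback, had 4.45 and 4.71 CPM in siL2 cells, 9.40 and 9.61 CPM in siL1 cells, and 3.86 and 3.13 CPM in siControl cells. It rose 2.74-fold with siL1 (log2 fold change 1.45, SE 0.140, adjusted p = 3.07e-06). With siL2 the log2 fold change was 0.39 (SE 0.156, adjusted p = 0.0582), and siL2 was below siL1 by 1.06 on the log2 scale (difference -1.06, adjusted p = 2.88e-05). EGLN1, the main HIF prolyl hydroxylase at normal oxygen, had 106 CPM in both siL2 libraries, 98.6 and 106 CPM in siL1 cells, and 98.7 and 94.4 CPM in siControl cells. Its rise of 0.13 with siL2 was at the threshold (adjusted p = 0.0499), and the call ended without any 1 of the siL2 or siControl libraries. EGLN2 had only 9 to 18 counts per library, 0.365 to 0.771 CPM, and did not pass the test with either siRNA. By GENCODE v29 it shares exons with the readthrough gene RAB4B-EGLN2, which had 0 counts in every library. Whether reads in the shared exons were left out of the counts was not tested. HIF1AN had 89.0 and 87.9 CPM in siL2 cells, 95.1 and 88.1 CPM in siL1 cells, and 91.6 and 92.2 CPM in siControl cells, with adjusted p of 0.337 (siL2) and 0.986 (siL1).

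VHL, the substrate receptor of the ubiquitin ligase that removes HIF alpha subunits, fell with both siRNAs. It had 97.9 and 97.8 CPM in siL2 cells, 101 and 94.8 CPM in siL1 cells, and 116 and 113 CPM in siControl cells, so that both knockdown groups lay below the control. VHL fell by 0.23 on the log2 scale with siL2 (SE 0.0459, adjusted p = 0.00108) and fell by 0.22 with siL1 (SE 0.0460, adjusted p = 0.00137). Of the 8 pathway genes, all tested, 1 rose and 1 fell with siL2, where 22.6% of all genes tested rose and 23.3% fell (45.8% in either direction). With siL1, 2 rose and 1 fell, where 24.7% of all genes tested rose and 25.7% fell (50.4% in either direction). The median log2 fold change of the 8 was 0.02 with siL2 and 0.02 with siL1, against -0.00 and -0.01 over all genes tested.

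More HIF targets rose than fell with siL1, and as many rose as fell with siL2. Of the 28 targets, 27 passed the count filter. With siL1, 14 rose, 4 fell and 9 did not pass the test, where 24.7% of all genes rose and 25.7% fell. The median log2 fold change was 0.42 (quartiles 0.01 and 0.80), against -0.01 (quartiles -0.23 and 0.25) over all genes. At a change of at least 0.5 on the log2 scale, 11 targets rose and 3 fell with siL1, where 11.1% of all genes rose and 5.73% fell that far. With siL2, 8 rose, 8 fell and 11 did not pass, where 22.6% of all genes rose and 23.3% fell. The median with siL2 was 0.05 (quartiles -0.19 and 0.24), against -0.00 (quartiles -0.20 and 0.23) over all genes. At 0.5 or more, 2 targets rose and 2 fell with siL2, where 8.11% of all genes rose and 5.81% fell. Both siRNAs were set against the same siControl libraries. Fewer targets were called with siL2 when a siControl or siL2 library was left out, with 1 library remaining in that group. Calls over all genes also fell.

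**Figure D2:**
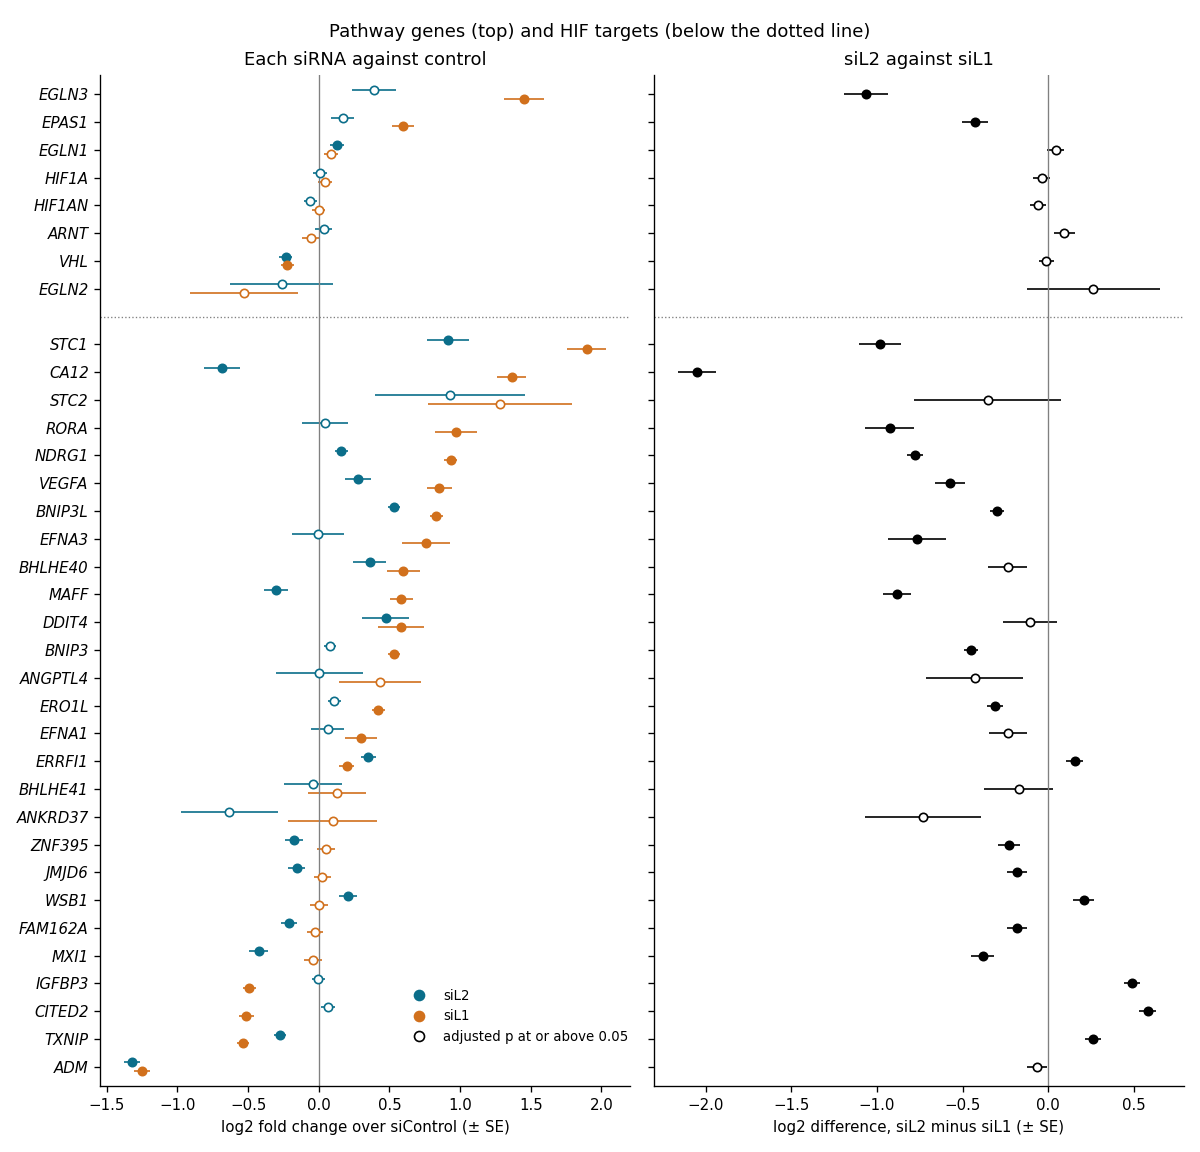
Left, log2 fold change of siL2 and of siL1 over siControl for the 8 pathway genes and the 27 tested targets; right, the log2 difference siL2 minus siL1. Points are edgeR estimates, bars are SE, and open points did not pass the threshold. STC1 was highest with siL1 (1.90), ADM lowest with both siRNAs (-1.32 with siL2, -1.25 with siL1), and CA12 had the largest difference between the siRNAs (-2.05).

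**Figure D3:**
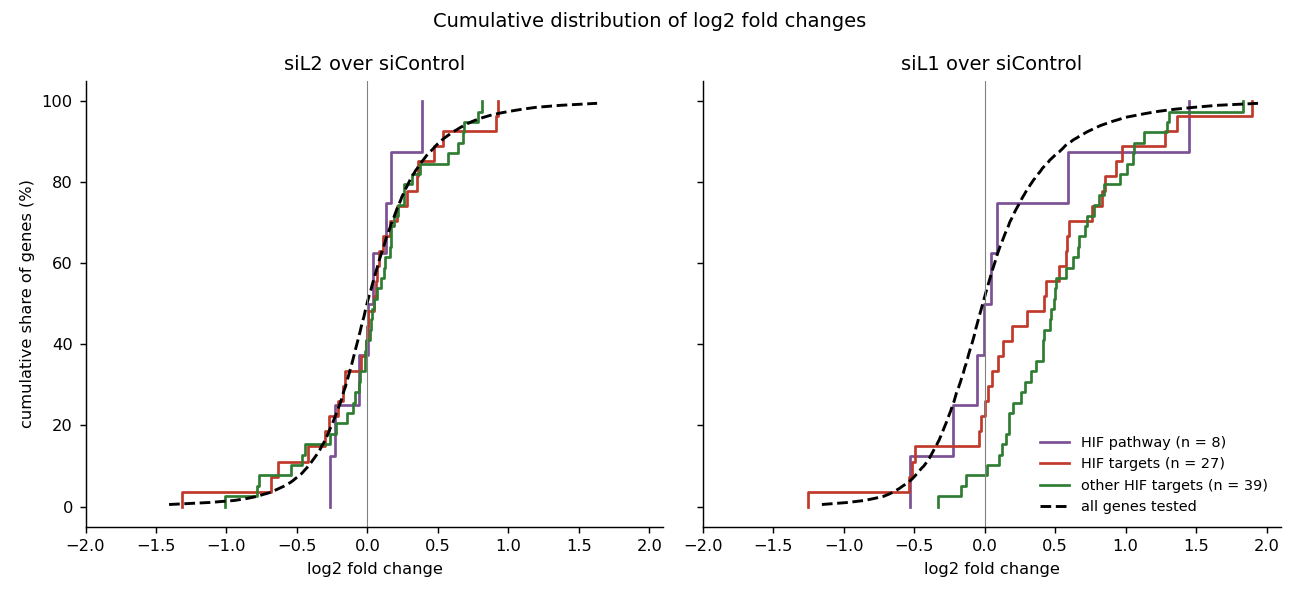
Cumulative share (%) of genes by log2 fold change with siL2 (left) and with siL1 (right), for the 8 pathway genes, 27 tested HIF targets, 39 tested genes of a further HIF target list, and all genes tested (dashed). With siL1 both target curves lay right of the dashed curve except for the lowest targets, with medians of 0.42 and 0.49 against -0.01, whereas with siL2 the medians were 0.05 and 0.04 against -0.00.

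The DNA core of the hypoxia response element was looked for in RefSeq promoters on GRCh38.p14, each covering 250 bases before to 50 bases after a start. Of the 36 genes, 29 had an entry in the promoter set used here. VEGFA, VHL, JMJD6, STC1, BNIP3L, NDRG1 and ZNF395 had none in that set and were not searched. The counts by direction below therefore leave out VEGFA, STC1, BNIP3L and NDRG1, which rose with siL1, and JMJD6 and ZNF395, which did not pass. The motif searched was ACGTG on either strand, which reads CACGT on the other, and the palindrome CACGTG holds both and was counted once. Of the 22 target genes with an entry, 14 (63.6%) held it in at least 1 window, as did 2 of 7 pathway genes (28.6%) and 6790 of all 27305 genes with an entry (24.9%). Among the targets it was held by 5 of 10 that rose with siL1, 2 of 4 that fell and 6 of 7 that did not pass, and by CA9, which was not tested. The promoters below are of targets that the results turn on, chosen after their values were seen, with the motif in capitals. CA9 (chr9:35673678-35673977, plus strand) had it 18 bases upstream of the start. BNIP3 (chr10:131981874-131982173, minus strand) had 1 palindrome 134 bases upstream, and BHLHE40 (chr3:4979187-4979486, plus strand) had 3 matches, the farthest 245 bases upstream. CA12 (chr15:63381797-63382096, minus strand) and ADM (chr11:10304823-10305122, plus strand) had no match in this window. A match is a description of these letters and does not show that HIF binds there.
CA9: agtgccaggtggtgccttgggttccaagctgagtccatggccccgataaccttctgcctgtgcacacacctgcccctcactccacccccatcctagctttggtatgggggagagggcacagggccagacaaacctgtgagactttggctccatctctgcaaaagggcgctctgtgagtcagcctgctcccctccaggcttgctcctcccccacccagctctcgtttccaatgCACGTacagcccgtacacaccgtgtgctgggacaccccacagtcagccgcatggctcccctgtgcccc
BNIP3: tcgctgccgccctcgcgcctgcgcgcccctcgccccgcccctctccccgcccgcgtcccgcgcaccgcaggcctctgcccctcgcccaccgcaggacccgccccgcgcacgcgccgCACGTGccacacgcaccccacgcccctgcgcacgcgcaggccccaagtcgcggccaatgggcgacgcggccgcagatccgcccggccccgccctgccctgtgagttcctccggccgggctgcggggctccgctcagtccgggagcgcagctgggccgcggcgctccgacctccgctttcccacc
BHLHE40: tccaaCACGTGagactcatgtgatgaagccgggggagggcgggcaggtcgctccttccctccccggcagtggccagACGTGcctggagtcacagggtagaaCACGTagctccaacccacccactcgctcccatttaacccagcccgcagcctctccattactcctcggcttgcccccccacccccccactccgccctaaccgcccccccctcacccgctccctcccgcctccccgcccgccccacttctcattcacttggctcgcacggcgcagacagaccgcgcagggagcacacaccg
CA12: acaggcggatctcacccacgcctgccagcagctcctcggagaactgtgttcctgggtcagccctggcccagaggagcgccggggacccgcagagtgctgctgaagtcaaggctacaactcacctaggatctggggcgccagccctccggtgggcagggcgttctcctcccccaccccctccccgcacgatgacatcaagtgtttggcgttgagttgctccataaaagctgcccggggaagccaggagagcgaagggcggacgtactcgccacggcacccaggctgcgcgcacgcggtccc
ADM: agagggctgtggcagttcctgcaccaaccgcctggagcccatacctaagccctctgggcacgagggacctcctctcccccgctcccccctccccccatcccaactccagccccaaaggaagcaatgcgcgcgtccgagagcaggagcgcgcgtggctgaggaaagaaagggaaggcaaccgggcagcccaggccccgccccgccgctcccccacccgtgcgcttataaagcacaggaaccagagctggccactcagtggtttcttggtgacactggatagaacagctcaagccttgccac

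Of the 8 targets that encode secreted or membrane ligands, 2 rose and 1 fell with siL2, where 22.6% of all genes rose and 23.3% fell. With siL1, 4 of the 8 rose and 2 fell, where 24.7% of all genes rose and 25.7% fell. The 8 genes are too few to set these counts apart from those shares. ADM, the precursor of the vasodilator adrenomedullin, had 47.9 and 52.6 CPM in siL2 cells, 51.4 and 53.0 CPM in siL1 cells, and 122 and 128 CPM in siControl cells. The knockdown groups overlapped each other and lay well below the control: ADM was 2.49-fold lower with siL2 (log2 fold change -1.32, SE 0.0568, adjusted p = 3.16e-09) and 2.39-fold lower with siL1 (log2 fold change -1.25, SE 0.0569, adjusted p = 4.68e-09). It was the lowest of the 27 tested targets on the log2 scale with each siRNA.

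STC1, stanniocalcin 1, a secreted glycoprotein that acts on calcium and phosphate balance, had 7.96 and 9.21 CPM in siL2 cells, 15.2 and 18.4 CPM in siL1 cells, and 4.54 and 4.53 CPM in siControl cells. The 3 groups did not overlap, in the order siL1, siL2, siControl. STC1 rose 1.88-fold with siL2 (log2 fold change 0.91, SE 0.149, adjusted p = 0.000266) and 3.72-fold with siL1 (1.90, SE 0.137, adjusted p = 2.51e-07). VEGFA, the main growth factor of new vessels, had 26.2 and 27.7 CPM in siL2 cells, 36.5 and 43.2 CPM in siL1 cells, and 21.3 and 23.0 CPM in siControl cells, in the same order. It rose 1.21-fold with siL2 (log2 fold change 0.28, SE 0.0917, adjusted p = 0.0247) and 1.81-fold with siL1 (0.85, SE 0.0887, adjusted p = 5.69e-06). The siL2 call for VEGFA ended without siControl replicate 1 or siL2 replicate 2.

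EFNA3, an ephrin that anchors to the membrane and binds Eph receptors, had 4.33 and 3.25 CPM in siL2 cells, 6.89 and 6.004 CPM in siL1 cells, and 4.22 and 3.43 CPM in siControl cells. Only the siL1 libraries stood apart, with a 1.69-fold rise (log2 fold change 0.76, SE 0.171, adjusted p = 0.00248), against a log2 fold change of -0.01 with siL2 (adjusted p = 0.981). Its relative EFNA1 rose by 0.30 with siL1 (adjusted p = 0.0448), a call that ended without any 1 of the 6 libraries. IGFBP3, which binds insulin-like growth factors in the medium, went the other way. It had 192 and 206 CPM in siL2 cells, 145 and 137 CPM in siL1 cells, and 196 and 202 CPM in siControl cells, and fell by 0.49 with siL1 (SE 0.0465, adjusted p = 2.58e-06). The other 2 ligands were barely detected. STC2, a second stanniocalcin, had 0.523 and 0.487 CPM in siL2 cells, 0.638 and 0.649 CPM in siL1 cells, and 0.0907 and 0.423 CPM in siControl cells, the lowest of which was under the level of 3 counts. Its log2 fold change with siL1 was 1.28 (SE 0.512, adjusted p = 0.0527), and it ran from 0.60 to 2.76 over 13 alternatives, of which 6 passed the threshold. The lowest value was without siControl replicate 1 and the highest without siControl replicate 2. ANGPTL4, an inhibitor of lipoprotein lipase, ran from 0.747 to 1.23 CPM and did not pass with either siRNA.

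The carbonic anhydrases of the cell surface differed most between the siRNAs. CA12, which hydrates carbon dioxide outside the cell and so helps set pH, had 4.52 and 4.14 CPM in siL2 cells, 17.4 and 18.3 CPM in siL1 cells, and 6.98 and 6.94 CPM in siControl cells. The siL1 libraries lay above the control and the siL2 libraries below it. CA12 fell by 0.69 on the log2 scale with siL2 (SE 0.127, adjusted p = 0.000675) and rose 2.57-fold with siL1 (log2 fold change 1.36, SE 0.104, adjusted p = 3.86e-07). CA9, the related enzyme widely used as a hypoxia marker, was too low for the count filter. It had 1 and 0 counts in the siL2 libraries, 9 and 10 counts in the siL1 libraries (0.383 and 0.406 CPM), and 0 in both siControl libraries. Over the group, the siL1 level was 6.01-fold a floor of 3 counts over the control group. Counting error in the siL1 libraries is not in this ratio. When no count filter was applied, CA9 had an adjusted p of 0.564 with siL2 and 0.00075 with siL1.

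Of the 9 genes of pH control, mitochondria and stress, 8 were tested, and 4 rose and 3 fell with siL2, where 22.6% of all genes rose and 23.3% fell, while 6 rose and 1 fell with siL1, where 24.7% of all genes rose and 25.7% fell. BNIP3L, a receptor that marks mitochondria for autophagy, had 122 and 124 CPM in siL2 cells, 148 and 153 CPM in siL1 cells, and 84.9 and 84.7 CPM in siControl cells. The groups did not overlap, and BNIP3L rose 1.45-fold with siL2 (log2 fold change 0.53, SE 0.0442, adjusted p = 8.9e-07) and 1.78-fold with siL1 (0.83, SE 0.0439, adjusted p = 1.53e-08). Its relative BNIP3 had 97.1 and 96.4 CPM in siL2 cells, 131 and 132 CPM in siL1 cells, and 91.9 and 90.6 CPM in siControl cells. BNIP3 rose with siL1 (0.53, SE 0.0425, adjusted p = 5.89e-07), and had a log2 fold change of 0.08 with siL2 (adjusted p = 0.147). FAM162A, a mitochondrial protein induced by hypoxia, had 46.6 and 49.7 CPM in siL2 cells, 54.0 and 54.5 CPM in siL1 cells, and 54.9 and 56.0 CPM in siControl cells, and fell by 0.21 with siL2 (adjusted p = 0.00929). That call ended without siControl replicate 2 or siL2 replicate 1. By GENCODE v29, exons of BNIP3L and FAM162A overlap PNMA2 and WDR5B on the opposite strand, as those of HIF1AN, BHLHE41 and ANKRD37 overlap NDUFB8, SSPN and UFSP2, and reads of such a pair cannot be told apart where strand was not used.

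NDRG1, a stress and differentiation gene strongly induced by hypoxia, had 147 and 142 CPM in siL2 cells, 239 and 253 CPM in siL1 cells, and 133 and 125 CPM in siControl cells. Both siL1 libraries were well above the rest. It rose 1.12-fold with siL2 (log2 fold change 0.16, SE 0.0479, adjusted p = 0.0157) and 1.91-fold with siL1 (0.93, SE 0.0472, adjusted p = 1.08e-08), and the siL2 call ended without siControl replicate 2 or siL2 replicate 1. DDIT4, which restrains mTORC1, had 27.2 and 36.8 CPM in siL2 cells, 29.2 and 39.0 CPM in siL1 cells, and 19.6 and 26.1 CPM in siControl cells. Its libraries differed widely within each group, with replicate 2 above replicate 1 in all 3 groups. The knockdown libraries all lay above the control ones. DDIT4 rose by 0.47 with siL2 (SE 0.164, adjusted p = 0.0319) and by 0.58 with siL1 (SE 0.164, adjusted p = 0.0103). Both calls held when replicate number was fitted as a block. Neither call held without siControl replicate 1, nor without replicate 2 of its own siRNA group, nor with DESeq2.

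ERRFI1, a feedback inhibitor of the EGF receptor, had 329 and 355 CPM in siL2 cells, 297 and 314 CPM in siL1 cells, and 255 and 279 CPM in siControl cells. It rose by 0.35 with siL2 (SE 0.0520, adjusted p = 0.000124) and by 0.20 with siL1 (SE 0.0522, adjusted p = 0.0068), and the siL1 call ended without siControl replicate 1 or siL1 replicate 2. It was higher with siL2 than with siL1 (0.15, adjusted p = 0.0267), which did not hold without siL1 replicate 1 (0.11, adjusted p = 0.184) or siL2 replicate 2 (0.10, adjusted p = 0.211). TXNIP, an arrestin that binds thioredoxin and restrains glucose uptake, fell with both siRNAs. TXNIP had 153 and 155 CPM in siL2 cells, 124 and 131 CPM in siL1 cells, and 182 and 189 CPM in siControl cells, with a fall of 0.27 for siL2 (SE 0.0441, adjusted p = 0.000238) and by 0.54 with siL1 (SE 0.0448, adjusted p = 8.48e-07). The 3 groups did not overlap, and siL1 was lowest.

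**Figure D4:**
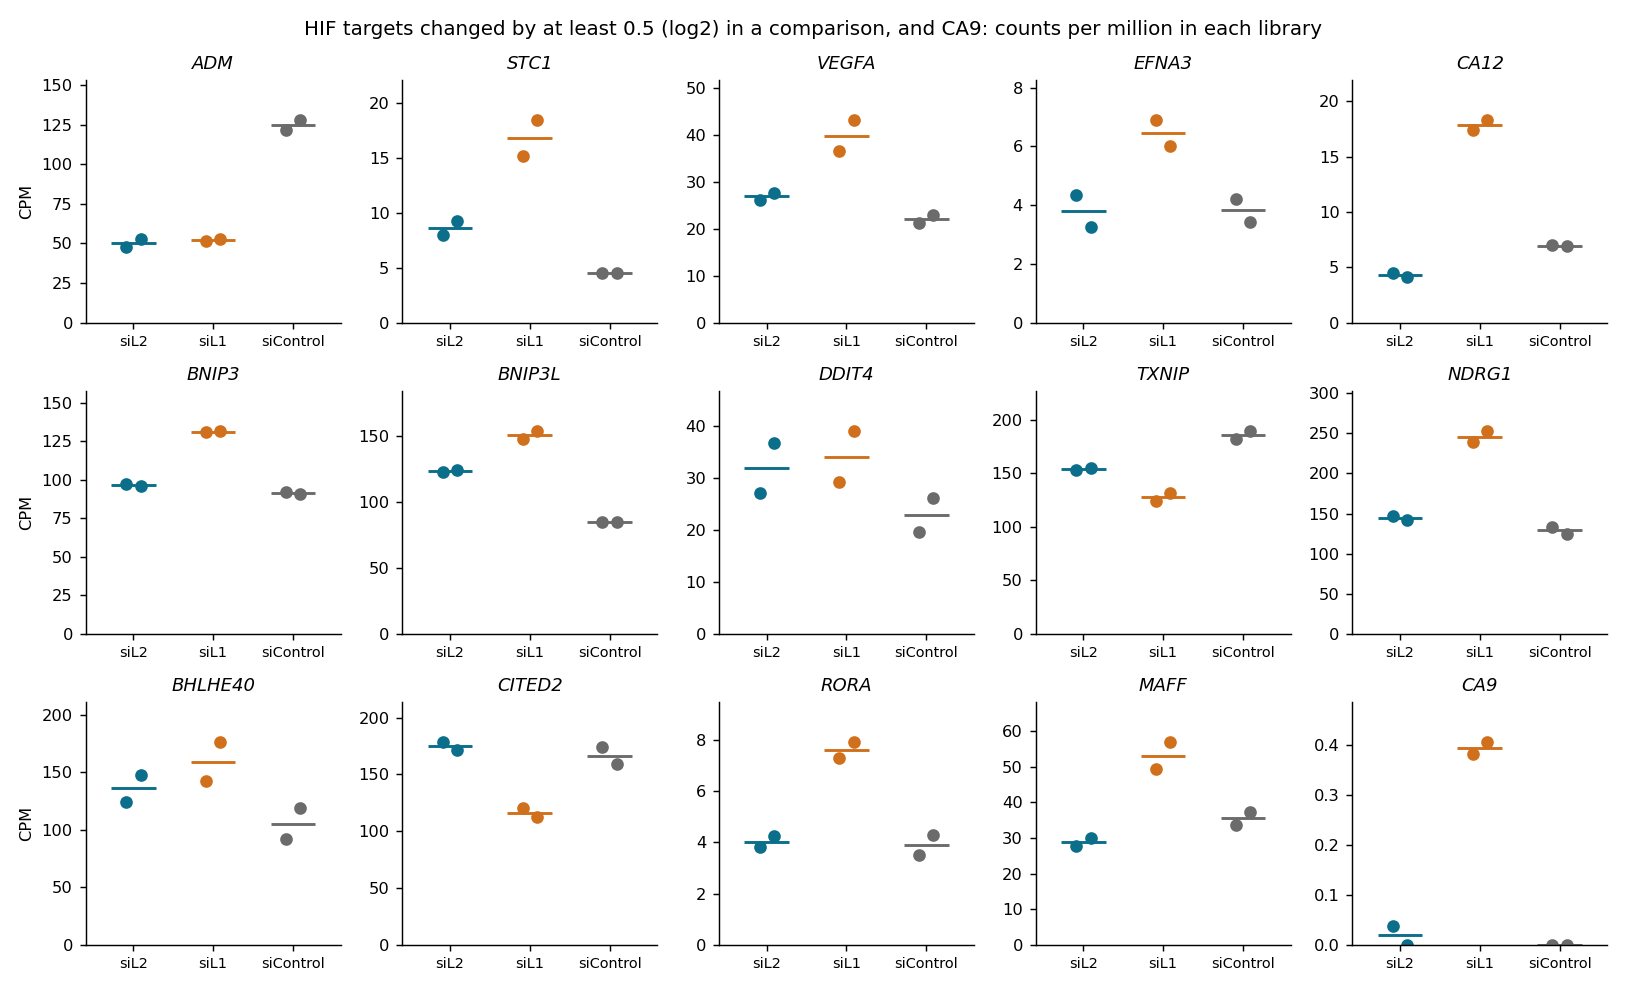
CPM (vertical axis, from 0) in each library of siL2, siL1 and siControl for the 14 targets that passed the threshold with a log2 change of at least 0.5 in any comparison, and for CA9. Points are libraries and bars are means of 2. ADM was low with both siRNAs, and CA12, CA9, RORA and EFNA3 stood high in the siL1 libraries alone. DDIT4 and BHLHE40 varied within each group, with replicate 2 the higher each time.

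Of the 7 targets that act in transcription, 1 rose and 3 fell with siL2, and 3 rose and 1 fell with siL1. Over all genes, 22.6% to 25.7% were called in each direction. The 7 genes are too few to set these counts apart from those shares. BHLHE40, a repressor of clock and differentiation genes, was higher in replicate 2 than in replicate 1 of each group. It had 124 and 148 CPM in siL2 cells, 142 and 176 CPM in siL1 cells, and 91.8 and 119 CPM in siControl cells. It rose by 0.36 with siL2 (SE 0.117, adjusted p = 0.0225) and by 0.60 with siL1 (SE 0.116, adjusted p = 0.000878), and the siL2 call ended without siControl replicate 1, without siL2 replicate 2 and with DESeq2. Its relative BHLHE41 ran from 1.87 to 2.38 CPM and did not pass with either siRNA.

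RORA, an orphan nuclear receptor, had 3.81 and 4.26 CPM in siL2 cells, 7.32 and 7.91 CPM in siL1 cells, and 3.49 and 4.28 CPM in siControl cells. It rose 1.96-fold with siL1 (log2 fold change 0.97, SE 0.148, adjusted p = 0.000137), against 0.05 on the log2 scale with siL2 (adjusted p = 0.843). MAFF, a small MAF protein of the stress response, had 27.7 and 30.1 CPM in siL2 cells, 49.2 and 56.8 CPM in siL1 cells, and 33.7 and 37.3 CPM in siControl cells. Like CA12, it lay above the control with siL1 and below it with siL2. MAFF fell by 0.30 with siL2 (SE 0.0855, adjusted p = 0.0111) and rose by 0.58 with siL1 (SE 0.0811, adjusted p = 6.72e-05); the siL2 call ended without siControl replicate 2 or siL2 replicate 1.

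CITED2, which competes with HIF alpha subunits for p300 and CBP and so limits HIF, was lower in both siL1 libraries than in any other. It had 178 and 172 CPM in siL2 cells, 120 and 113 CPM in siL1 cells, and 174 and 159 CPM in siControl cells, and fell by 0.51 with siL1 (SE 0.0514, adjusted p = 4.29e-06), with a log2 fold change of 0.07 with siL2 (adjusted p = 0.294). MXI1, an antagonist of MYC, fell only with siL2. It had 23.0 and 22.6 CPM in siL2 cells, 29.6 and 29.5 CPM in siL1 cells, and 30.8 and 30.2 CPM in siControl cells, a fall of 0.42 with siL2 (SE 0.0672, adjusted p = 0.000214), and siL2 minus siL1 was -0.38 (adjusted p = 0.000478). ZNF395, a zinc finger factor whose exons overlap FBXO16 on the same strand, fell by 0.18 with siL2 (adjusted p = 0.0368), a call that ended under upper quartile scaling, with DESeq2, and without siControl replicate 1 or either siL2 library.

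Of the other 4 targets, 1 rose and 1 fell with siL2, where 22.6% of all genes rose and 23.3% fell. With siL1, 1 rose and 0 fell, where 24.7% of all genes rose and 25.7% fell. The 4 genes are too few to set these counts apart from those shares. ERO1L, an oxidase that drives disulfide bond formation in the endoplasmic reticulum, had 188 and 186 CPM in siL2 cells, 222 and 240 CPM in siL1 cells, and 172 and 175 CPM in siControl cells. It rose by 0.42 with siL1 (SE 0.0448, adjusted p = 7.15e-06), and its log2 fold change with siL2 was 0.11 (adjusted p = 0.0631). Both siL2 libraries lay above the control ones. The siL2 value passed under some alternatives, among them DESeq2 size factors, upper quartile scaling and a replicate block. WSB1, the substrate receptor of a ubiquitin ligase, had 76.4 and 81.9 CPM in siL2 cells, 64.7 and 71.5 CPM in siL1 cells, and 65.8 and 70.7 CPM in siControl cells, and rose by 0.21 with siL2 (adjusted p = 0.0163), a call that ended without siControl replicate 1 or siL2 replicate 2. JMJD6, an oxygenase of the same broad enzyme class as the HIF hydroxylases, fell by 0.16 with siL2 (adjusted p = 0.0454), which did not hold in 9 of 14 alternatives. ANKRD37, an ankyrin repeat gene, ran from 0.528 to 1.05 CPM and did not pass with either siRNA.

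Set directly against each other, the siRNAs differed at most targets. In siL2 minus siL1, 5 of the 27 tested targets were higher, 14 were lower and 8 did not pass the test, where 23.2% of all genes were higher and 23.7% lower (46.8% in either direction). The median was -0.30, against 0.00 over all genes. At 0.5 or more on the log2 scale, 1 was higher and 7 lower, where 6.38% and 8.53% of all genes were. The targets lower by that much were CA12 (-2.05, adjusted p = 2.46e-08), STC1 (-0.98, adjusted p = 3e-05), RORA (-0.93, adjusted p = 0.000189), MAFF (-0.89, adjusted p = 2.67e-06), NDRG1 (-0.78, adjusted p = 6.09e-08), EFNA3 (-0.77, adjusted p = 0.00228) and VEGFA (-0.57, adjusted p = 0.000134). CITED2 was higher with siL2, by 0.58 (adjusted p = 1.73e-06). For ADM the difference was -0.06 (SE 0.0600, adjusted p = 0.402). KDM1A itself was lower with siL2 than with siL1, as given above. Of the 8 pathway genes, 2 were lower in siL2 minus siL1, EGLN3 and EPAS1, and 0 were higher.

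Other genes of the pathway were counted from 2 further lists. These were also chosen with earlier results of these data known, so they are not separate support for the counts of the members. Of 18 further regulators of HIF stability and activity, 17 were tested and HIF3A had 0 counts in every library. With siL2, 3 rose and 7 fell, where 22.6% of all genes rose and 23.3% fell. With siL1, 3 rose and 3 fell, which is near the 24.7% and 25.7% of all genes. AJUBA, a LIM scaffold that brings hydroxylases and VHL together, had 166 and 174 CPM in siL2 cells, 227 and 244 CPM in siL1 cells, and 125 and 132 CPM in siControl cells, and rose by 0.40 with siL2 (adjusted p = 2.8e-05) and by 0.88 with siL1 (adjusted p = 2.7e-08). The chaperone HSP90AB1, which binds HIF alpha subunits, fell by 0.25 with siL2 and by 0.36 with siL1 (adjusted p = 4.92e-05 and 1.94e-06). The coactivator CREBBP fell by 0.17 and 0.19 (adjusted p = 0.00634 with siL2 and 0.00249 with siL1). ARNT2, a second beta subunit, rose by 0.65 with siL1 (adjusted p = 0.000188). SENP1, a SUMO protease that stabilises HIF1A, had 30.5 and 31.0 CPM in siL2 cells, 55.5 and 58.3 CPM in siL1 cells, and 51.2 and 52.5 CPM in siControl cells, and fell by 0.76 with siL2 (adjusted p = 5.9e-07). SIAH2, a ubiquitin ligase that removes EGLN proteins, fell by 0.38 with siL2 (adjusted p = 0.000318).

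The second list held 41 further HIF targets, glycolysis and collagen hydroxylation genes included. Of 39 tested, 31 rose and 1 fell with siL1 (median log2 fold change 0.49, against -0.01 over all genes), where 24.7% of all genes rose and 25.7% fell. With siL2, 11 rose and 8 fell (median 0.04, against -0.00), which is near the 22.6% and 23.3% of all genes. In siL2 minus siL1, 1 was higher and 28 lower (median -0.43, against 0.00), where 23.2% of all genes were higher and 23.7% lower. The collagen lysyl hydroxylase PLOD2 rose by 0.26 with siL2 (adjusted p = 0.000288) and by 1.05 with siL1 (adjusted p = 2.33e-09), and PLOD1 rose by 0.22 and 0.58 (adjusted p = 0.00115 with siL2 and 3.24e-07 with siL1). Lactate dehydrogenase A, LDHA, fell by 0.14 with siL2 (adjusted p = 0.0112) and rose by 0.66 with siL1 (adjusted p = 6.06e-08). The glucose transporter SLC2A3 rose by 0.81 with siL2 (adjusted p = 1.75e-06) and by 0.72 with siL1 (adjusted p = 4.95e-06). Hexokinase HK2 had 126 and 119 CPM in siL2 cells, 208 and 211 CPM in siL1 cells, and 213 and 204 CPM in siControl cells, and fell by 0.77 with siL2 (adjusted p = 2.83e-08). HMOX1, heme oxygenase, fell by 1.01 with siL2 (adjusted p = 5.51e-07).

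The authors' deposited table was compared with these calls. Its adjusted p was under 0.05 for 0 pathway genes that rose and 1 that fell with siL2, and for 2 and 1 with siL1. Among the 28 targets the authors' deposited table had 6 higher and 6 lower with siL2, and 13 higher and 4 lower with siL1. The share of all genes passing in the authors' columns was not counted, so these member counts stand without their background. No member was called in opposite directions. The authors' deposited table did not pass EGLN1, DDIT4, BHLHE40, ZNF395 and JMJD6 with siL2, nor EFNA1 and DDIT4 with siL1, all of which passed here, and it passed CA9 with siL1 (adjusted p 0.006825).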

How the data were processed

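Total RNA of 6 MDA-MB231 libraries was sequenced. Read counts per gene were deposited by the authors for each library, made with TopHat 1.3.3 and HTSeq on hg19 per the submitters' processing notes. The strand setting is not given in the sources used here. The authors' deposited table also holds a fold ratio and an adjusted p-value for each siRNA against control, for which the notes name DESeq. Here, counts were tested with edgeR 4.0.16 (R 4.3.3): genes passing filterByExpr (13322 of 23368), TMM scaling, a fit over all 3 groups without covariates, and Benjamini-Hochberg adjustment at 0.05. CPM are counts over library totals. Alternatives used DESeq2 1.42.0, limma-voom (limma 3.58.1), other scalings and filters, a replicate block, the 2 groups compared alone, and each library left out. Targets were named in full where they passed with a log2 change of at least 0.5 in any comparison, and the other members more briefly. Members and gene lists were chosen with earlier results of these data known. On simulated counts for siL1 against siControl, edgeR called 48 of 50 genes planted at a log2 change of 1 and 39 of 50 at 0.5. It called 32 of 49 at -0.5 and 44 of 49 at -1, with 7 of 13010 unchanged genes called. Few genes were changed there, in siL1 only, with the spread estimated from these libraries. In the data 50.4% of tested genes were called with siL1, so these rates may not carry over. The replicates differed by more than sampling noise (chi-square per degree of freedom 3.28 to 3.53). Overlapping exons were taken from GENCODE v29.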

Additional observations from a re-analysis of the deposited data

Results flagged for a closer look

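CA12 and MAFF were called in opposite directions by the siRNAs against LSD1, and the difference passed the test itself. For CA12, siL2 minus siL1 was -2.05 on the log2 scale (edgeR, adjusted p = 2.46e-08), with means of 4.33 CPM with siL2, 17.9 CPM with siL1 and 6.96 CPM with siControl. For MAFF it was -0.89 (adjusted p = 2.67e-06).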

How the results depend on the processing

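Of the members called, 18 of 21 kept their call under all 14 alternatives with siL1, 8 of 18 with siL2 and 17 of 21 in siL2 against siL1, and none was called in the other direction. With siL2, the 2 pathway genes called became 1 without a count filter, 1 with DESeq2, 4 with a replicate block and 1 to 2 when a library was left out. The 16 targets called with siL2 became 10 to 16 when a library was left out, and 12 with DESeq2. The 19 further targets called with siL2 became 12 with DESeq2 and 12 to 17 when a library was left out (12 without siControl replicate 1). With siL1, 15 to 18 of the targets were called when a library was left out, against 18 with all. Calls over all genes changed too. With siL2, DESeq2 called 4737 of 13322 genes, against 6106 with edgeR. Without a count filter, edgeR called 6334 of 17623. Fewer of all genes were also called when a library of either group compared was left out. Whether the members lost calls more often than other genes was not tested. Replicate numbers are shared between groups but no label says what they mark. Deviations of same-numbered libraries correlated at 0.133 to 0.198 over 13322 genes. A replicate block called 17 targets with siL2, 19 with siL1 and 20 in siL2 against siL1. It called 7610, 8036 and 7700 of all genes in these comparisons, against 6106, 6712 and 6240 without it. With the block, EPAS1, EGLN3 and ERO1L passed with siL2 (adjusted p = 0.0341, 0.0277 and 0.00285). With upper quartile scaling, EGLN3 and ERO1L passed with siL2. ERO1L also passed with DESeq2 size factors and when only the groups compared were fitted. DESeq2 gave no adjusted p for 1 value, STC2 in siL2 against siL1. Counts of CA9 and STC2 were under the floor of 3 in at least 1 library, and EGLN2 had 9 to 18 counts per library. What limited these low levels was not tested.

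Some log2 values that did not pass the test changed sign, and the cause was not tested. When a library was left out, siL2 against siControl ran from -0.0249 to 0.0378 for HIF1A, -0.0141 to 0.0828 for ARNT, -0.161 to 0.164 for ANGPTL4, -0.0564 to 0.0478 for IGFBP3, -0.232 to 0.177 for EFNA3, -0.14 to 0.0658 for BHLHE41, -0.000212 to 0.136 for CITED2 and -0.0895 to 0.200 for RORA. siL1 against siControl ran from -0.0433 to 0.126 for HIF1A, -0.0531 to 0.046 for HIF1AN, -0.0369 to 0.14 for ZNF395, -0.118 to 0.363 for ANKRD37, -0.0221 to 0.0677 for JMJD6 and -0.0792 to 0.075 for WSB1. siL2 against siL1 ran from -0.119 to 0.0501 for HIF1A, -0.0104 to 0.102 for EGLN1, -0.0834 to 0.703 for EGLN2, -0.0506 to 0.0333 for VHL, -0.136 to 0.00889 for ADM and -0.34 to 0.126 for DDIT4. With DESeq2 size factors, upper quartile scaling, the 1 CPM filter and DESeq2, IGFBP3 (siL2) was 0.00344, 0.0163, 0.000681 and 0.00356, and HIF1AN (siL1) was 0.0076, 0.0225, 0.0035 and 0.0077, with 0.0082 when only the groups compared were fitted. ANGPTL4 (siL2) was -0.000622 without a filter and -0.00723 with limma-voom, EFNA3 (siL2) was 0.0128 with upper quartile scaling, and WSB1 (siL1) was -0.00726 without a filter.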
